A study of Homo sapiens with 6 samples.

Results

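The genes described here are 85 entries of the TS-RIP table that carry the gene type TEC and had a mean value above 500 over the 6 libraries. They were 85 of 998 TEC entries and of 42822 entries in all, and 343 of the 998 TEC entries were listed at 0 in every library. The members were thus chosen by their level, which is described and not tested, and a member that passed only through the fraction where it was high had to differ between the fractions. The mean over the 3 RIPctr libraries was above 500 in 85 of the 85 members and the mean over the 3 TS-RIP libraries in 38. The remaining 47 passed through RIPctr alone and none through TS-RIP alone. Counts, medians and p-values of the members below carry that choice.

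The study immunoprecipitated thymidylate synthase (TS), the enzyme that makes thymidylate from deoxyuridylate, and sequenced the RNA that came with it, to ask which RNAs TS binds and how TS inhibitors change this. The cells were HCT116, a colon adenocarcinoma line, labelled as mismatch repair (MMR) deficient and UGI inhibited in all 6 libraries, UGI being a phage protein that blocks the uracil-DNA glycosylase UNG. One culture was not treated (NT). The others received a TS inhibitor for 48 h, either raltitrexed at 100 nM (RTX) or 5-fluoro-2'-deoxyuridine at 20 µM (5FdUR). In each treatment the combined cytoplasmic and nuclear extract first went over antibody-free Protein A/G beads, whose RNA is the control fraction RIPctr, and then to an anti-TS antibody, which gave TS-RIP. There was 1 library for each treatment and fraction and no replicate within a treatment, so a p-value below measures the spread over the 3 treatments. In the main test, limma, that spread was partly borrowed from other entries of similar level, and is not a member's own alone. With RIPctr and TS-RIP as different preparations, a lower share of an RNA in the one and a higher share in the other cannot be told apart, nor can fewer cells with an RNA from less of it in each cell.

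TEC is the GENCODE type of candidate genes that still await experimental proof. Its annotators give it to stretches of the genome where unspliced, polyadenylated cDNA clones or expressed sequence tags cluster, so that a gene may exist there, but where its product has not been tested. cDNA libraries are commonly primed with oligo-dT, which anneals to poly(A) tails and can also anneal to A-rich stretches within a transcript. That concerns the clones behind the annotation. The libraries of this study were depleted of ribosomal RNA and, per the methods, primed at random. The sources used here give no role for any of the members, which are ordered below by level, by ratio and by place in the genome.

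The libraries held between 7051104 and 11657293 fragments, and values are scaled fragments, in which 500 stands for 3.67 to 5.88 fragments. The epithelial markers KRT8, KRT18, KRT19, EPCAM and CDH1 were high in every library, while the intestinal markers CDX1 and VIL1 had at most 5 fragments. The 11 markers of blood, endothelium, fibroblasts and liver summed to between 21940 and 28267 in RIPctr and between 11262 and 25416 in TS-RIP, mostly from the collagen gene COL1A1, while the T cell and erythroid markers CD3E and HBB were at 0 in every library. Their part in the results was not tested. RIPctr libraries also held more entries with only 1 or 2 fragments. NT, RTX and 5FdUR had 4278, 5643 and 5967 of them in RIPctr and 3457, 4377 and 4649 in TS-RIP, and the part of this breadth in the results was not tested either.

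The ends of the members show of what kind their sequences are. A GENCODE 44 transcript was found for 84 of the 85 members and was a single exon of type TEC in each of the 84, with a length of 348 to 8092 bases (median 2107) and a median GC content of 47.2%. The motif AATAAA or its variant ATTAAA, the signals at which most messenger RNAs are cut and polyadenylated, was searched on the sense strand of the last 50 bases and was present in 33 of 84 members (39.3%). It was present in 33.1% of all TEC entries, in 49.3% of lncRNA entries and in 75.9% of protein-coding entries with a mean above 500. The sequences below are the last 40 bases of a member and the next 20 bases of the genome (GRCh38), shown for members on which the results turn and which end with such a motif, in capitals:
AC012513.3, chr2:216213480-216213539, plus strand: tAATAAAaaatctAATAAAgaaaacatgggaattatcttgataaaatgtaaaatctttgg
AC015813.6, chr17:58101440-58101499, plus strand: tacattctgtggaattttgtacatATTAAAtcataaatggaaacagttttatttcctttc
AC025031.5, chr12:46407127-46407186, plus strand: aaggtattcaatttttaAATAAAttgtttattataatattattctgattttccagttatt
AC073857.1, chr12:123152304-123152363, minus strand: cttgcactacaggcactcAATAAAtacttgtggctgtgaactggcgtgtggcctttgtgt

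The other feature was an A-rich stretch in the genome just after the annotated end. Of the 84 members, 22 (26.2%) had 12 or more A among the next 20 bases, compared with 11.4% of all TEC entries, 6.34% of lncRNA entries and 1.68% of protein-coding entries with a mean above 500. Both features occurred together in 2 members, and 31 members had neither. The following ends were A-rich and had no motif in the bases shown. They include a simple repeat of A with G:
AL353795.3, chr9:35038605-35038664, minus strand: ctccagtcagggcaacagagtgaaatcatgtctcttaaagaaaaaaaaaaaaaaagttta
AC122688.3, chr12:125141672-125141731, plus strand: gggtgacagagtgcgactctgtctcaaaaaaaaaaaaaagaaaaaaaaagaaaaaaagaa
AC015883.1, chr17:57450252-57450311, plus strand: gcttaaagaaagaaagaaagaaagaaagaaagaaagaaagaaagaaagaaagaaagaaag
Chromosome 17 held a larger share of the members than of all TEC entries, with 19 of the 85 members (22.4%) beside 8.92%. Chromosomes 16 and 12 were nearer their shares, with 11 members (12.9%) beside 12.1% and 10 (11.8%) beside 9.32%.

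The levels spanned a wide range, with a median of the members' means of 1031 and 41 of them between 500 and 1000. The highest was AC012513.3 (ENSG00000279348; chr2:216211404-216213519, plus strand), which lies outside annotated genes, 5101 bases after the end of XRCC5, the gene of a subunit of the Ku DNA repair protein. Its RIPctr values were 29065, 21405 and 14854 in NT, RTX and 5FdUR, and its TS-RIP values 30431, 22452 and 15248. Both fractions were thus at the same level in each treatment, with log2 ratios of TS-RIP to RIPctr (after adding 100 to each value) of 0.07, 0.07 and 0.04, and a mean ratio of 0.06 ± 0.13 (SE over 3 pairs; limma adjusted p = 0.811). Counting error alone left the NT ratio between -0.17 and 0.30 (95% exact binomial interval, which covers counting error only, here and below).

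The next 7 members by level behaved unevenly. AL031587.5 (chr22:37943050-37944898, plus strand) starts 228 bases after the end of MICALL1, an endosomal recycling gene, and lies opposite C22orf23. It had 9118, 9707 and 14308 in NT, RTX and 5FdUR RIPctr and 12325, 8384 and 11262 in TS-RIP, so that the fractions overlapped. Its ratios of 0.43, -0.21 and -0.34 lay beside those of MICALL1 itself, 0.44, 0.00 and -0.40. AL662795.2, in an intron of the lncRNA gene HCG17 on chromosome 6, had ratios of -0.05, -0.28 and 0.02, although HCG17 itself had a mean value of only 22.7. AC005538.2, which overlaps an exon of the pseudogene MSL3P1, was higher in TS-RIP in NT, where the values were 7295 and 11730 (log2 ratio 0.68, interval 0.25 to 1.14), and had ratios of 0.31 and -0.33 in RTX and 5FdUR.

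AC015813.6 was the one of these 8 members with a limma adjusted p under 0.05. It starts 130 bases after the end of DYNLL2, the gene of a dynein light chain, at chr17:58095672-58101479 on the plus strand. RIPctr gave 11512, 11698 and 7359 and TS-RIP 8585, 3855 and 4286, where the fractions overlapped and the low TS-RIP values were those of both drugs. The mean ratio was -0.92 ± 0.22 (limma adjusted p = 0.0197, and 0.319 without the RTX pair), and the ratios were -0.42, -1.58 and -0.77, whereas DYNLL2 had -0.03, 0.18 and 0.29. AC018629.1, after the focal adhesion gene TNS4, and AL928654.4, in an intron of the sorting gene PACS2, were near or above an even ratio in NT (-0.13 and 0.21) and lower in RTX (-1.03 and -0.63) and in 5FdUR (-0.79 and -0.96), without a call. AL132656.4, in an intron of the lncRNA gene NUTM2B-AS1, had ratios of 0.40, 0.43 and -0.49, where NUTM2B-AS1 was lower in each treatment (-0.74, -1.01 and -0.99).

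**Figure D1:**
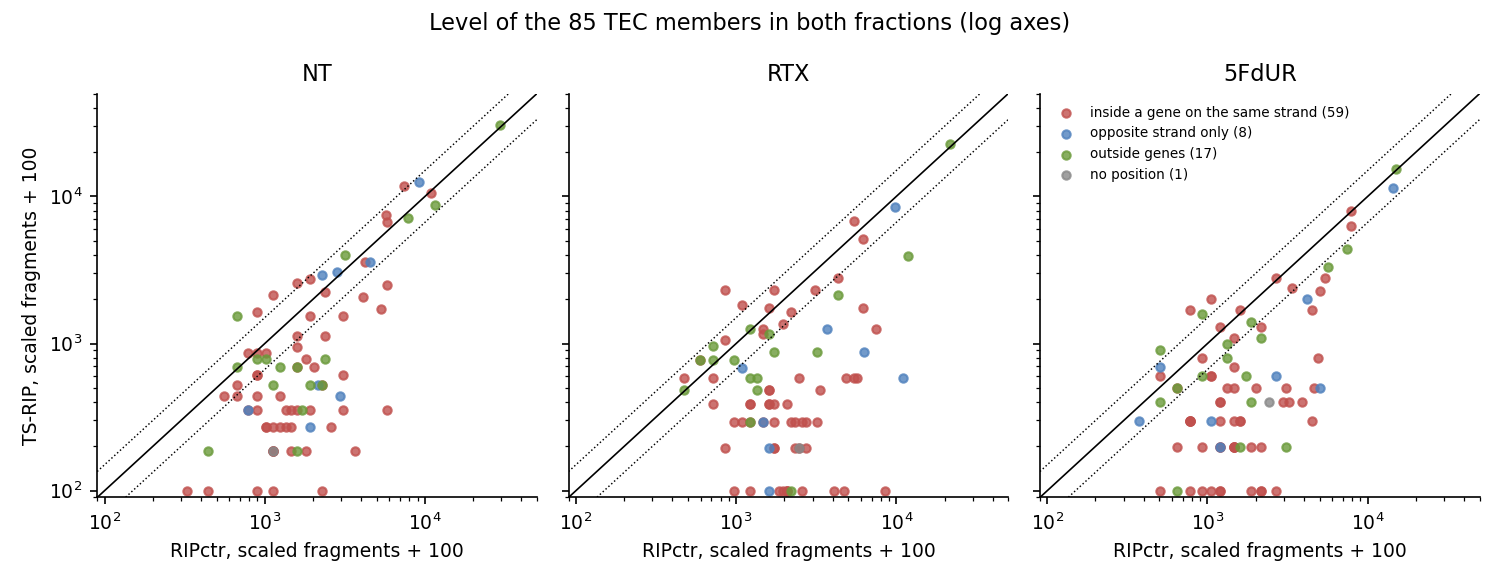
Each point is 1 of the 85 TEC members, with its RIPctr value (horizontal) and TS-RIP value (vertical) in scaled fragments plus 100 on log axes, in 1 panel per treatment, coloured by place in the annotation. The solid line marks equal values and the dotted lines a 1.5-fold difference. The highest member, AC012513.3, sits on the line in each treatment, while members at other levels lie below it, such as AC015813.6 in RTX (11698 against 3855), down to TS-RIP values of 0 at the bottom edge.

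Over the 3 pairs, 44 of the 85 members were lower in TS-RIP at a limma adjusted p under 0.05 and 0 were higher. Among all 13479 entries tested, 831 were lower (6.17%) and 314 higher (2.33%). Without adjustment, 56 members had p under 0.05 in the lower direction and 0 in the higher, with no share over all entries set beside this. On recovered fragments, edgeR and DESeq2 called 0 members higher too. They called 43 and 29 lower, beside 5.27% and 3.11% of all entries. The count was 24 without the RTX pair, 53 without the NT pair and 1 when the treatment was not used as a block. Over all entries the share called lower moved too, to 2.66%, 15.5% and 0.349% in these fits. Entries of similar level had a smaller share, 214 of 1850 lower (11.6%) with means of 500 to 2000, and lncRNA entries had 219 of 1143 (19.2%). In the higher direction these had 0 of 1850 and 1 of 1143, so that the lack of higher calls was not particular to the members. The median of the members' mean ratios was -2.01, against -0.01 over all entries, -0.42 over those with means of 500 to 2000 and -0.50 over lncRNA entries. The way the members were chosen bears on this: of the 38 members whose TS-RIP mean was above 500 too, 7 were lower, where 4.84% of all such entries were, and the median of the 38 was -0.31. Those 7 were AC015813.6, AC018628.2, AC005839.1, AC131212.3, AC055811.4, AC011498.7 and AC000123.3, a list made after their values were seen.

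In 51 of the 85 members all 3 TS-RIP values lay under all 3 RIPctr values, compared with 7.33% of all entries. The share was 23.1% of entries with means of 500 to 2000 and 29.4% of lncRNA entries. The reverse order occurred in 0 members, in 3.59% of all entries, in 1.51% of those with means of 500 to 2000 and in 0.875% of lncRNA entries. All 3 ratios were below 0 in 59 members (69.4%), beside 23.3% of all entries, 39.2% of those with means of 500 to 2000 and 47.8% of lncRNA entries. They were all above 0 in 1 member, AC012513.3, and in 3110 of the 13479 entries.

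A count that the choice of members does not touch used all 998 TEC entries. A mean above 500 was reached by 130 of them in RIPctr and by 40 in TS-RIP, whereas over all entries the numbers were 14034 and 13035 and over lncRNA entries 1427 and 875. The members' summed share carries the choice. Per 1000000 fragments of a library, they made up 206 in NT RIPctr (95% exact binomial interval 197 to 215) and 155 (148 to 162) in NT TS-RIP. In RTX they made up 237 (226 to 248) and 85.6 (80.2 to 91.2), and in 5FdUR 201 (190 to 211) and 89.1 (83.4 to 95.1). The intervals of both fractions did not overlap in any treatment, and the gap was widest in RTX. Without AC012513.3, NT had 178 and 124, RTX 215 and 64.5, and 5FdUR 185 and 74.1. The 913 TEC entries that missed the limit went the same way, at 66.9 against 24.4 (NT), 116 against 25.4 (RTX) and 117 against 27.9 (5FdUR). That direction was not particular to TEC entries. With no limit on the level, 5266, 7964 and 8241 of all 42822 entries were 1.5-fold lower in NT, RTX and 5FdUR. Higher by that much were 2786, 2635 and 2612.

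**Figure D2:**
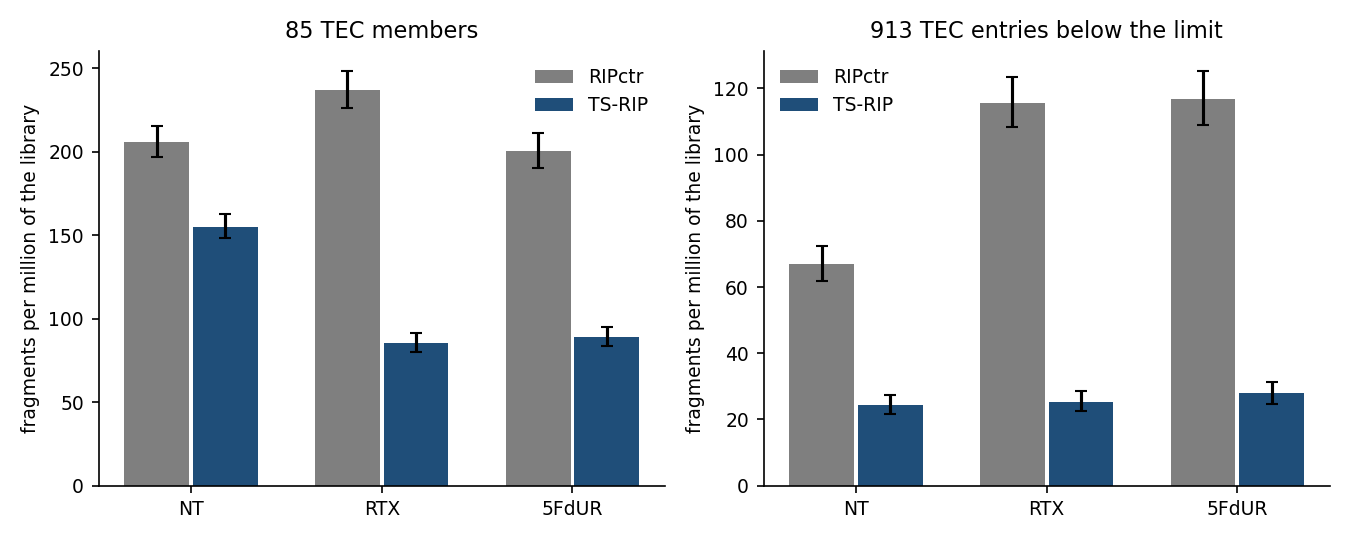
Bars give the fragments per 1000000 of each library that fell on the 85 members (left) and on the 913 TEC entries below the limit (right), for RIPctr (grey) and TS-RIP (blue) in each treatment. Error bars are 95% exact binomial intervals, which cover counting error only. In every treatment the TS-RIP bar is the lower of the pair, for example 85.6 against 237 for the members in RTX.

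The 12 members with the largest ratios in size among those with a limma call were all lower in TS-RIP. Each of the 12 had a TS-RIP mean at or under 500 and so passed the level limit only through RIPctr, where it was high, so that it had to differ between the fractions. Their ratios and p-values are therefore given as a description. AC005921.4 (chr17:50722074-50724224, plus strand) overlaps an exon of LUC7L3, a gene of a splicing-related protein. It had 2166, 8338 and 3816 in NT, RTX and 5FdUR RIPctr, and 0, 0 and 299 in TS-RIP, the last of these being 3 fragments. Taking 3 fragments as the floor of a library at 0, it was at least 8.49-fold lower in NT and at least 28.8-fold lower in RTX, and the fitted mean ratio was -4.73 ± 0.57 (limma adjusted p = 0.000141). LUC7L3 was itself lower in TS-RIP, with ratios of -1.64, -1.21 and -0.52.

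AC025031.5 (chr12:46404644-46407166, plus strand), in an intron of the antisense lncRNA gene SLC38A4-AS1, had 5699, 4729 and 2589 in RIPctr and 255, 482 and 0 in TS-RIP. Its mean ratio was -3.94 ± 0.44 (limma adjusted p = 7.7e-05), with at least an 8.66-fold lower value in 5FdUR. The entry of the gene that holds it, listed as AC008014.1, had ratios of -0.41, -0.98 and -0.66. AL353795.3 (chr9:35038625-35044326, minus strand), opposite C9orf131 and with an A-rich end, had 2052, 10951 and 4906 in RIPctr and 425, 482 and 399 in TS-RIP. The TS-RIP values were thus alike in the 3 treatments and RIPctr was highest in RTX, and the ratios were -2.04, -4.25 and -3.33.

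AC021945.1, in an intron of DSCC1, a gene of sister chromatid cohesion, had 1026, 4604 and 2862 in RIPctr and 85.0, 0 and 299 in TS-RIP, at least 15.9-fold lower in RTX. DSCC1 had ratios of -0.03, 0.00 and 0.12. AC015799.1, in an intron of PAFAH1B1, the lissencephaly gene LIS1, had 1368, 3982 and 1090 in RIPctr and 170, 0 and 99.7 in TS-RIP, at least 13.8-fold lower in RTX. PAFAH1B1 had ratios between -0.18 and 0.15. AC122688.3, in an intron of the ketone body enzyme gene AACS, had 12, 21 and 13 fragments in RIPctr and 1 fragment in each TS-RIP library, with a mean ratio of -3.34 ± 0.53 (limma adjusted p = 0.00165).

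AC092135.3, in an intron of CMIP, had 2508, 2613 and 2044 in RIPctr and 170, 193 and 0 in TS-RIP, and AC015883.1, in an intron of the RNA-binding protein gene MSI2, had 2963, 2116 and 1772 against 510, 193 and 0. AL133243.4, in an intron of the ubiquitin ligase gene BIRC6, was the only member at 0 in all 3 TS-RIP libraries, with 798, 1991 and 818 in RIPctr, at least 3.13-fold, 6.89-fold and 2.73-fold lower in NT, RTX and 5FdUR. The other 3 of the 12 were AC007608.4 in an intron of the Wnt regulator gene NKD1, AC131009.4 in an intron of the autophagy kinase gene ULK1 and AC127024.8. Their mean ratios were -3.34, -3.23 and -3.52 and each was at 0 in 2 of the TS-RIP libraries. Without the RTX pair the limma adjusted p of AL133243.4, AC015799.1 and AC131009.4 was 0.0796, 0.054 and 0.0595, and without the 5FdUR pair that of AC131009.4 was 0.0692. In all, 23 members were at 0 in at least 1 TS-RIP library and 0 in any RIPctr library. This count carries the choice of members too, since 85 of 85 had a RIPctr mean above 500 and only 38 a TS-RIP mean above it. No share over all entries is set beside it.

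**Figure D3:**
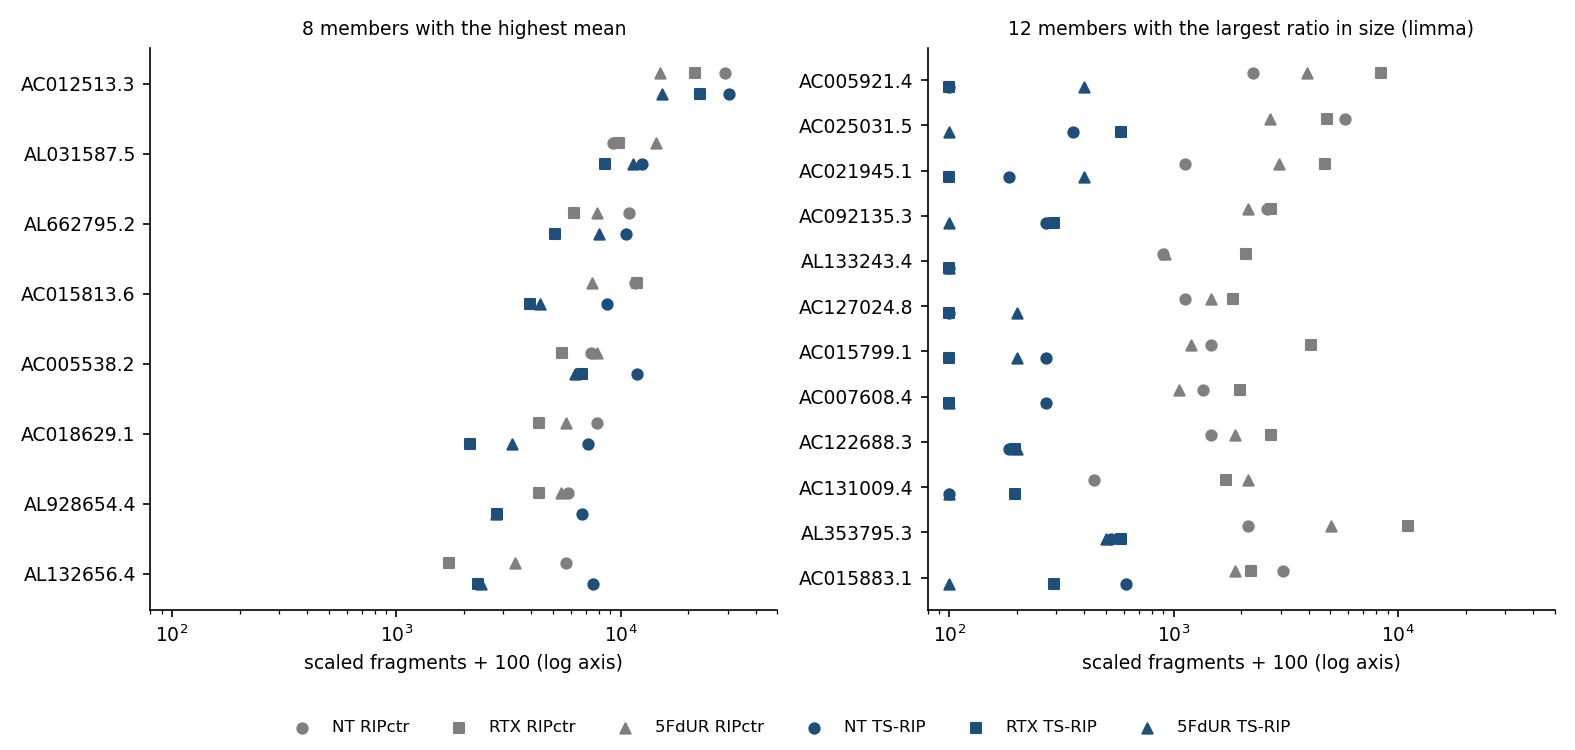
Values of the 8 members with the highest mean (left) and of the 12 with the largest ratio in size among those with a limma call (right), in scaled fragments plus 100 on a log axis, for each library (grey RIPctr, blue TS-RIP, symbols by treatment). On the left the ranges of both fractions overlap for all 8 members, and on the right every blue symbol of a member lies to the left of its grey ones, at 100 where the library had 0.

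Within a treatment, where there was no test, a member was counted when its 2 libraries averaged above 500 and differed by at least 1.5-fold. In NT, 47 of 76 members were lower and 5 higher, where 9.8% of all entries were lower and 4.37% higher. In RTX, 58 of 80 were lower and 2 higher (14.7% and 4.27% of all entries). In 5FdUR, 52 of 69 were lower and 4 higher (15.1% and 3.03%). Among entries with means of 500 to 2000 the lower shares were larger, at 36%, 52.6% and 50.3% in NT, RTX and 5FdUR, and among lncRNA entries 36.9%, 55.4% and 51.2%, where the members' own were 61.8%, 72.5% and 75.4%. The median ratios of the 85 members in NT, RTX and 5FdUR were -1.19, -2.03 and -1.58, and over all entries 0.02, 0.00 and -0.01. Over lncRNA entries they were -0.30, -0.69 and -0.56, and over entries with means of 500 to 2000 -0.26, -0.58 and -0.49. With every library under 3 fragments set to 3, the members' medians were -1.27, -1.95 and -1.45. In RTX 61 members (71.8%) had a lower ratio than in NT, beside 53.0% of all entries and 67.3% of lncRNA entries, and in 5FdUR 56 members (65.9%), beside 53.5% and 61.2%. Both counts use the same NT libraries, and the differences between treatments were not tested.

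The same members were not lower throughout: 33 were lower in all 3 treatments, 22 in 2, 14 in 1 and 16 in none. Of the 13479 entries with a mean above 500, 3.12% were lower in all 3. Among members with a mean above 2000, AC018628.2, AC015909.5, AC131212.3 and AC005921.4 had the widest range of ratios over the treatments. AC018628.2, which touches an exon of the Mediator gene MED13, had 5699, 7342 and 4361 in RIPctr and 2380, 1156 and 199 in TS-RIP. Its ratios were -1.23, -2.57 and -3.90, where MED13 had 0.13, -0.03 and -0.04. AC015909.5, after the mitochondrial ribosomal gene MRPL27, had 2736, 6222 and 4088 in RIPctr and 2975, 771 and 1894 in TS-RIP, with ratios of 0.12, -2.86 and -1.07. In RTX its RIPctr value was the highest of the 3 and its TS-RIP value the lowest. AC131212.3, in an intron of FBRSL1, had ratios of -0.99, -3.29 and -2.61.

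The members with the highest mean ratios were AC116348.6, AC126474.2, AC073857.1 and AC023024.2, at 0.45, 0.44, 0.40 and 0.29, with limma adjusted p from 0.533 to 0.749. AC116348.6 overlaps an exon of the septin gene SEPTIN1 and is the shortest member with 348 bases. It had 912, 747 and 1090 in RIPctr and 765, 2216 and 1196 in TS-RIP, so that only RTX stood out (ratio 1.45, interval 0.23 to 3.16). AC126474.2, in an intron of BLTP3B (listed as UHRF1BP1L), had 570, 996 and 954 in RIPctr and 425, 1735 and 1894 in TS-RIP, and was counted as higher in RTX (0.74) and in 5FdUR (0.92), with intervals that include 0. AC073857.1, which touches an exon of the centriolar gene MPHOSPH9 and ends with AATAAA, had 1824, 2116 and 681 in RIPctr and 2635, 1542 and 1595 in TS-RIP. Its ratio in 5FdUR, 1.12, had an interval of -0.29 to 3.03. In NT the highest ratios were those of AC022107.1 (1.21, 5 fragments in RIPctr and 17 in TS-RIP) and AC092919.3 (0.93, 9 and 24 fragments), both with intervals that include 0.

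By place in the genome, 59 of the 84 members with a transcript overlapped a gene on the same strand, 8 overlapped only a gene on the opposite strand and 17 lay outside genes. The authors' counting was strand-aware, but reads from a host gene's unspliced transcript and from a member in its intron have the same strand and cannot be told apart. The median mean ratio was -2.20 in the first class, -1.56 in the second and -0.76 in the third. When the whole span of a member had to lie inside the other gene, the medians were -2.23, -0.70 (6 members) and -0.92, which turned the order of the second and the third class. limma called 36 of 59, 3 of 8 and 4 of 17 lower, beside 6.17% of all entries. In NT the medians were -1.34, -0.74 and -0.83, in RTX -2.14, -2.59 and -0.98, and in 5FdUR -2.01, -1.44 and -0.73. No test compared the classes.

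A finer split was made after the values were seen. Of the 59 members inside a gene, 48 touched no exon of it on the same strand, that is, lay in introns, and 11 touched one. The median mean ratio was -2.25 for those in introns (32 of 48 called lower) and -0.20 for those touching an exon (4 of 11). Their median levels were 936 and 1189, and both classes carry the choice by level, whose part in this difference was not tested. Of the other 25 members, 14 began within 5000 bases after the end of a gene on the same strand (-0.84, 4 called lower) and 11 were farther away (-0.998, 3 called lower). Both extremes occurred among the 11 that touch an exon, with mean ratios from -4.73 (AC005921.4) to 0.45 (AC116348.6).

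**Figure D4:**
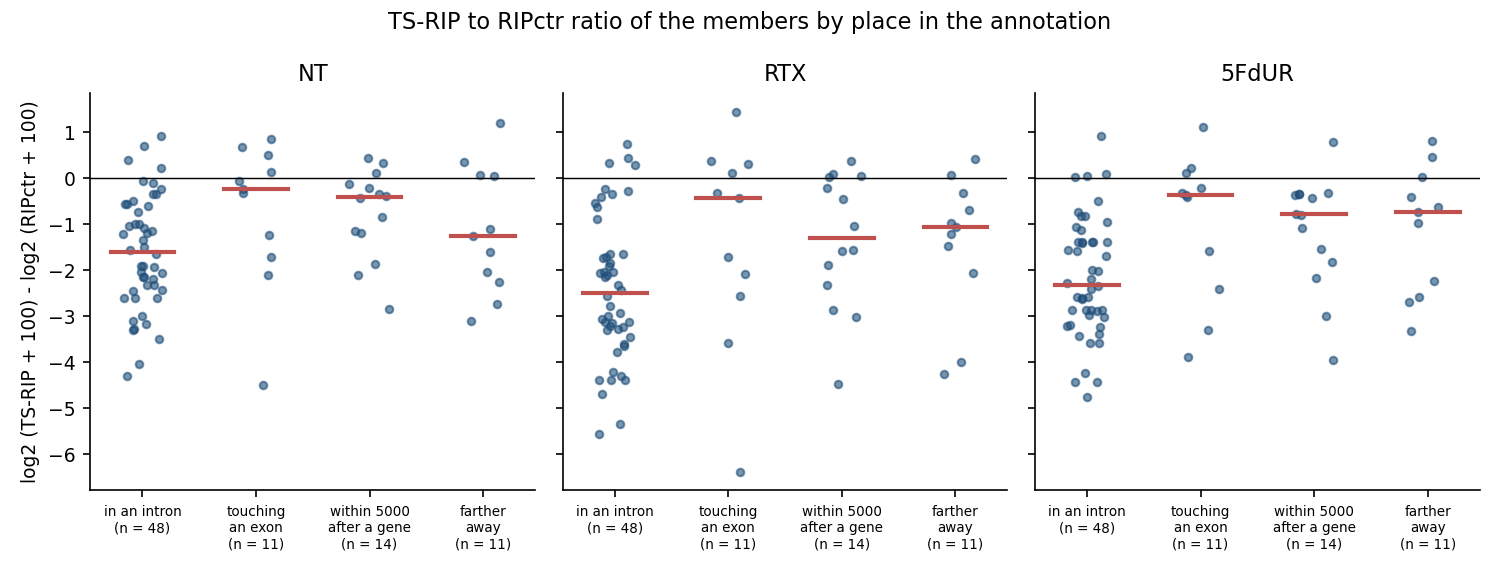
Points are the log2 ratios of TS-RIP to RIPctr (value plus 100) of the 84 members with a known place, in 1 panel per treatment, and red bars are class medians. Members in introns have medians of -1.60, -2.49 and -2.32 (NT, RTX, 5FdUR), and those touching an exon -0.23, -0.43 and -0.37.

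The genes that hold the members mostly did not share their ratios. For 50 members inside a gene that was measured in an entry of its own with a mean above 500, the 46 distinct genes had a median mean ratio of -0.07, with 5 lower and 2 higher by limma, and the 50 members had -2.21. A member was below its gene in 43 of the 50 pairs, and in 44, 44 and 43 of them in NT, RTX and 5FdUR. For 12 members within 5000 bases after a gene's end, the genes had a median of -0.04 and the members -0.79, with 11 below their gene. By treatment, 9, 10 and 8 of the 12 were below it in NT, RTX and 5FdUR. The genes are far more abundant than the members, for example CMIP with a mean of 91456 against 1255 for AC092135.3. The part of the level in these differences was not tested. The pair counts also carry the choice of members. Those that passed the limit through RIPctr alone, 47 members, had to differ between the fractions before any pairing. The 38 members with both fraction means above 500 had a median of -0.31, and the pairs were not split this way. The counts therefore cannot show whether the RNA of a member behaves differently from that of its gene. The genes CMIP, MSI2, FBRSL1 and PITPNC1 hold 2 members each, which are not independent. An exception was AC025678.3, chosen after its values were seen, with ratios of -1.14, -2.03 and -2.01 inside the golgin gene GOLGA8A, which had -1.71, -3.62 and -3.48.

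**Figure D5:**
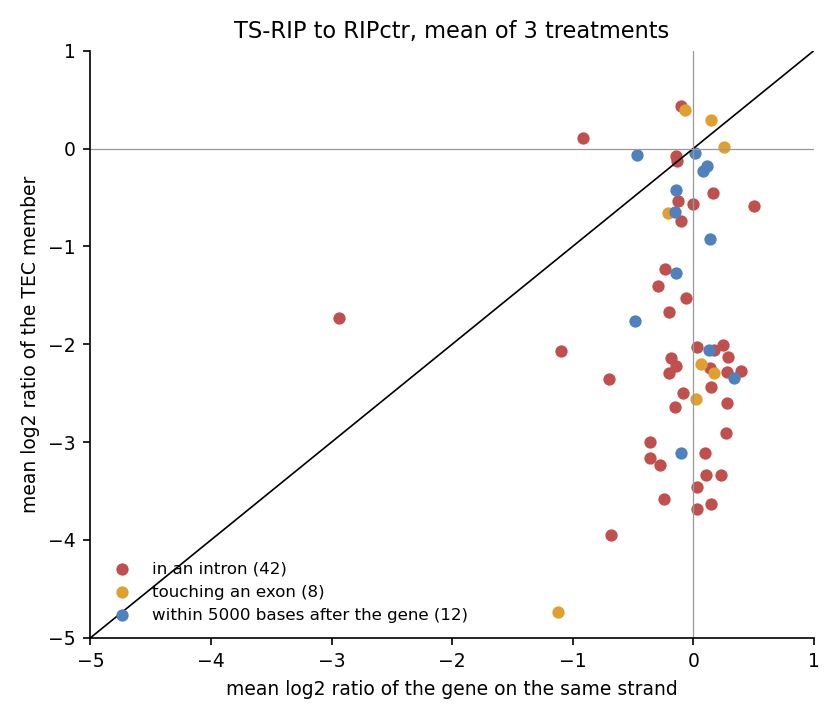
Mean log2 ratio of TS-RIP to RIPctr over the 3 treatments for a member (vertical) and for the gene on the same strand that holds or precedes it (horizontal), with the line of equal ratios. Most genes lie near 0 (median -0.07 for those that hold a member), while members in introns (red) spread down to -3.94. The ratios of the members carry the choice by level.

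Ends and ratios were also set side by side. Of the 22 members with an A-rich stretch after the end, 18 were called lower by limma (median mean ratio -2.52), and of the other 62, 25 (-1.29). Of the 14 A-rich members in introns, 14 were called lower, and of the 8 not in introns 4. Members with AATAAA or ATTAAA had a median of -1.27 (14 of 33 lower) and those without -2.23 (29 of 51), but 13 of the 33 and 35 of the 51 lay in introns. Within introns the medians were -2.13 with the motif and -2.27 without. Over all entries 6.17% were called lower, and the members' calls carry the choice by level. These are descriptions with no test.

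RNAs that stay in the nucleus were measured beside the members, a pair chosen after the values were seen. MALAT1 and NEAT1, lncRNAs of nuclear speckles and paraspeckles, were far lower in TS-RIP. The NT, RTX and 5FdUR ratios were -4.43, -6.28 and -5.57 for MALAT1 and -3.89, -6.28 and -5.99 for NEAT1. They were lower in RTX and 5FdUR than in NT, as were the members' medians. This order was not particular to them. The medians of lncRNA entries were -0.30, -0.69 and -0.56 in NT, RTX and 5FdUR, and those of entries with means of 500 to 2000 were -0.26, -0.58 and -0.49. Whether the members' RNA is nuclear was not tested.

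Drug against NT was compared by size alone, counting a member that changed at least 2-fold the same way in both fractions with a mean of the 4 libraries above 1000. In RTX, 0 of 44 members rose and 2 fell, beside 5.33% and 3.61% of all entries. The 2 were AL132656.4, which went from 5585 to 1618 in RIPctr and from 7395 to 2216 in TS-RIP, and AC110285.6, from 2166 to 996 and from 2805 to 578. In 5FdUR, 1 of 40 rose and 3 fell, beside 10% and 7.75% of all entries. AC021945.1 rose from 1026 to 2862 in RIPctr and from 85.0 to 299 in TS-RIP, which is from 1 to 3 fragments. AC110285.6 fell to 409 and 598, AC025031.5 from 5699 to 2589 in RIPctr and from 255 to 0 in TS-RIP, and AC131649.2 from 2850 to 1090 and from 340 to 99.7. Between 5FdUR and RTX, 0 of 42 changed in either direction (1.04% and 0.352% of all entries). The shares are near or below those of all entries, and the median member had 3 to 13 fragments in a library. AC012513.3 went from NT to 5FdUR by -0.96 in RIPctr and -0.99 in TS-RIP on the log2 scale, just under the limit of 2-fold.

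At the limit of 500 that defines the members, AC016397.2 and AC079331.1 were just inside with means of 509.7 and 510.3. AC007431.3 and AC064801.2 were just outside with 497.9 and 497.5. AC016397.2 had 8, 3 and 3 fragments in RIPctr and 8, 4 and 3 in TS-RIP, while AC079331.1 had 10, 7 and 5 against 2, 0 and 2, so members at this end rest on few fragments.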

How the data were processed

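RNA of 2 fractions (RIPctr and TS-RIP) from 3 treatments was sequenced, 1 library each, both fractions of a treatment from 1 lysate, so treatment served as block. Per the labels and the methods, the authors used fastp, HISAT2 (GRCh38), GENCODE 34 and Cuffnorm, strand-aware, with no length correction. The deposited values, which the authors call FPKM, are a signal: in each library every value below 200 fragments was a whole multiple of 1 step within 0.05 fragments, and dividing by it gave fragments. The plan assumed FPKM, and the values were handled as scaled fragments instead. A further 25 per-sample columns, 12 of them of long RNA libraries, were not used. Columns with a random subsample of each library served as an alternative depth.

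Ratios are log2(TS-RIP + 100) minus log2(RIPctr + 100), and understate changes of low genes. The main test was limma 3.58.1 (lmFit, eBayes with trend, treatment as block, 2 residual degrees of freedom, two-sided) on 13479 entries with a mean above 500, with Benjamini-Hochberg adjustment over all of them. It was run on simulated data too, in which no entry differed between treatments and the lowest entries were left unchanged. That run does not cover the members with the fewest fragments. edgeR 4.0.16 and DESeq2 1.42.0 on recovered fragments were alternatives. Places and sequences came from GENCODE 44 and GRCh38, matched by transcript identifier (84 of 85 members; AC008895.1 had none). Commas in clone names of the table were read as points. Members, lists and tests were chosen with earlier results of these data known. Named were the 8 highest members, the 12 largest ratios among limma calls, the 4 highest mean ratios, the 2 highest per treatment, the 3 largest rises and falls per drug comparison, the 4 widest ranges and the 2 entries on each side of the limit, with the genes holding them. Sequence from chromosome 8 was not printed.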

Additional observations from a re-analysis of the deposited data

Results flagged for a closer look

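For 5 members the within-treatment counts pointed in opposite directions, higher in TS-RIP in 1 treatment and lower in another. With 1 library per group the difference between treatments was not tested. AC022107.1 had NT, RTX and 5FdUR ratios of 1.21, 0.42 and -0.97, from 5, 5 and 15 fragments in RIPctr and 17, 9 and 10 in TS-RIP. AC092919.3 had 0.93, 0.30 and -0.82, and AC005831.1, in an intron of CRACR2A, had 0.70, -0.34 and -0.73. Z99129.4, after the end of SERINC1, ran the other way with -2.11, 0.042 and 0.80, and AC009108.5 had 0.053, -1.21 and 0.82.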

How the results depend on the processing

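The count of 44 members lower in TS-RIP by limma was 36 to 49 with a pseudocount of 10 or 500, no filter, or edgeR, and 31 with equal totals per library, while 0 were higher in each of the alternatives. The count of members was 9 of the 19 with a mean above 2000, 17 with eBayes without trend, 29 with DESeq2 and 23 on the random subsamples. Of all entries tested, 4.85%, 1.6%, 3.11% and 3.47% were lower in these settings. Among members with a TS-RIP mean above 500 it was 7, beside 4.84% of all such entries. Without the replicate block that pairs both fractions of a treatment, 1 was lower, beside 0.349% of all entries, where 53 members had an unadjusted p under 0.05. Leaving out 1 pair gave 24 (without RTX) to 53 (without NT), where 2.66% and 15.5% of all entries were lower. Equal totals moved the median of all entries by 0.09, -0.11 and -0.08 in NT, RTX and 5FdUR.

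Within treatments, a mean of both libraries above 2000 left 5 of 20, 13 of 18 and 11 of 17 members lower in NT, RTX and 5FdUR. Higher were 1, 0 and 0. Of all entries, 686 of 11543, 969 of 11552 and 974 of 11636 were lower at this limit, and 307, 371 and 189 higher. At 2-fold, 1 member was higher in each treatment, beside 130 of 13301, 107 of 13540 and 109 of 13776 entries in all. With the exact binomial test on fragments (adjusted over all entries) 1, 1 and 0 members were higher, with no share over all entries set beside this. With a pseudocount of 500, 1 member was higher in RTX, beside 437 of 13540 entries in all, and on the random subsamples 4, beside 816 of 13569. The medians were -1.34 in RTX and -1.01 in 5FdUR with a pseudocount of 500, and -0.23, -1.56 and -1.07 in NT, RTX and 5FdUR for the 19 members above 2000. With the whole span required to lie inside, the medians were -0.92 outside genes and -0.70 on the opposite strand only.

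Between treatments, falls in RTX were 1 with a pseudocount of 500, 1 with a mean above 2000, 1 with equal totals, 7 at 1.5-fold and 4 on the random subsamples. In 5FdUR over NT, rises were 0, 0 and 2 and falls 1, 1 and 12 with a pseudocount of 500, a mean above 2000 and 1.5-fold. In 5FdUR over RTX there were 3 falls at 1.5-fold, and 2 rises and 2 falls on the random subsamples. The cause of these changes was not tested, other than the fewer members at higher limits. No shares over all entries are set beside the counts between treatments in these settings.

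Among 31 named members, the pseudocount of 10, equal totals and edgeR changed 1 call, that of AC015813.6 with equal totals (adjusted p = 0.0727 by limma). Leaving out 1 pair turned the sign of the mean ratio of 7 members, none with a call, among them AC116348.6, whose mean ratio of 0.45 was the highest. The mean ratios ran from -0.28 to 0.11 for AL031587.5, from -0.0086 to 0.49 for AC005538.2, from -0.048 to 0.42 for AL132656.4, from -0.052 to 0.79 for AC116348.6, from -0.27 to 0.81 for AC022107.1, from -0.26 to 0.61 for AC092919.3 and from -0.17 to 0.41 for AC110285.6. Calls by limma were gained without the NT pair for AC015909.5, AC018629.1 and AL928654.4, and without the 5FdUR pair for AC015909.5. The fit without the NT pair called 15.5% of all entries lower, beside 6.17% in the main fit. Depth limits most values: the median member had 10 to 13 fragments in a RIPctr library and 3 to 5 in a TS-RIP library.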
